A study of Mus musculus with 24 samples.

Results

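The 8 genes described here are Phlda3, Men1, Daxx and Atrx, which are suppressors of pancreatic neuroendocrine tumours, and Tsc1, Tsc2, Akt1 and Mtor of the AKT and mTOR pathway. They were taken by mouse symbol from a list, not by their values, and each matched 1 of the 46517 gene entries in the deposited counts. All 8 were among the 14866 genes that had enough counts to be tested. RNA came from βTC3 cells, a mouse insulinoma line from the Rip-Tag2 model, in which SV40 large T antigen is driven in beta cells by an insulin promoter. The control line carried the plasmid PB-31. A second line carried PB-31 holding the miR-23b cluster, which also encodes miR-27b and miR-24 (the miR-23b line), and another PB-31 holding miR-137, each induced by doxycycline (DOX). Each line was kept 7 d in plain medium (no DOX) or 7 d with 2 µg/ml DOX, and the 2 miRNA lines also had DOX for 7 d followed by 7 d without it (withdrawn). This gave 8 groups of 3 libraries, 24 in all, and all groups share the large T antigen, which binds p53 and the retinoblastoma protein.

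No control culture was taken off DOX, and no culture without DOX was matched in length to those taken off it, so a lasting effect of DOX and 7 more days in culture cannot be told apart. Dates and plates are absent from the labels, so DOX and any batch that separated treated from untreated wells cannot be told apart either. Each line is known only by its plasmid, and the sources used here do not say whether it is 1 clone. These are bulk libraries, in which fewer cells of a type and less RNA per cell cannot be told apart. The wells were plated in triplicate and nothing says that they were separate experiments, so p-values measure only the spread between these libraries, which may be technical.

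Libraries held 15759849 to 24144737 reads counted in genes. The inserted loci matched the labels. Mir24-1, of the miR-23b cluster, stood at 96.6 to 113 unadjusted CPM (counts scaled to the library's total) in the miR-23b line on DOX. It stood at 0.698 or less in the other 21 libraries. Of these the miR-23b line without DOX was highest, at 0.55 to 0.698, against 0 to 0.105 in the control line without DOX. Gm26871, the transcript that hosts miR-137, stood at 121 to 126 in the miR-137 line on DOX and at 6.15 or less elsewhere. All 15 beta cell and neuroendocrine markers were detected in every group, with summed levels of 19300 to 23500 CPM, against at most 1.78 for 9 exocrine, 4.57 for 7 fibroblast, 4.13 for 6 leukocyte and 1.79 for 5 endothelial markers.

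Menin, the product of Men1, is a scaffold that brings MLL histone methyltransferases to their target genes, and its gene is the one most often inherited in mutant form in families with endocrine tumours. DAXX and ATRX together place the histone variant H3.3 at telomeres and silent repeats. AKT is activated at the membrane downstream of growth factor receptors and PI3 kinase, and PHLDA3, a small protein made of a membrane-binding PH domain, competes with it for membrane lipids. AKT restrains the TSC1 and TSC2 complex, which itself restrains the kinase mTOR. Losses of MEN1, DAXX, ATRX, PHLDA3 and the TSC genes recur in human pancreatic neuroendocrine tumours.

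Mature sequences of miR-27b-3p and miR-24-3p of the miR-23b cluster, and of miR-137-3p, are shown because matches to their seeds (bases 2 to 8, in capitals) in the 3′ UTRs of the 8 genes can be counted, which the counts per gene cannot show. They are from RefSeq on GRCm38.p6, 5′ to 3′, at chr13:63300760-63300780, chr13:63301251-63301272 and chr3:118433901-118433923, all on the plus strand.
miR-27b-3p: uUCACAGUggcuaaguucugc
miR-24-3p: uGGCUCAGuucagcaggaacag
miR-137-3p: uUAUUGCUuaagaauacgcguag
The 3 seeds differ. miR-23b-3p is not analysed here, so the matches do not cover the whole cluster. In the longest annotated 3′ UTR of each gene (GENCODE M21 on GRCm38), read on the transcript's strand, Men1 held 1 match to miR-24-3p and Tsc1 held 1 to miR-24-3p and 1 to miR-27b-3p. None of the 8 held a match to miR-137-3p. The sites are shown with the 7 matching bases in capitals.
Men1, miR-24-3p match at chr19:6340700-6340706, plus strand: ttatctgtgaataCTGAGCCt
Tsc1, miR-24-3p match at chr2:28690585-28690591, plus strand: ataagtaggcagcCTGAGCCa
Tsc1, miR-27b-3p match at chr2:28691137-28691143, plus strand: ttgcttgtgtttaACTGTGAa

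Such matches are common. Among 20699 genes with a 3′ UTR, 16.3% held the miR-24-3p match, 16% the miR-27b-3p match and 9.67% the miR-137-3p match, in UTRs of all lengths. A match is a description of the letters only, and its absence in the longest UTR says nothing of other transcripts.

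Phlda3 (ENSMUSG00000041801; GRCm38, chromosome 1, 135766119 to 135769136, plus strand) was the least abundant of the 8 genes and the one that moved most. In the miR-23b line it stood at 0.776, 0.700 and 0.572 CPM (scaled by TMM, edgeR's correction for library composition) without DOX. With 7 d DOX the 3 libraries stood at 8.31, 8.54 and 9.01 CPM, and after withdrawal at 0.791, 0.682 and 0.700. The 3 libraries on DOX lay above all 21 other libraries of the series, of which the highest was at 1.83, and the withdrawn libraries overlapped those never given DOX. The rise was 12.5-fold (log2 3.65, SE 0.181, edgeR adjusted p = 8.7e-20), the 9th highest fold of the 14866 genes tested.

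**Figure D1:**
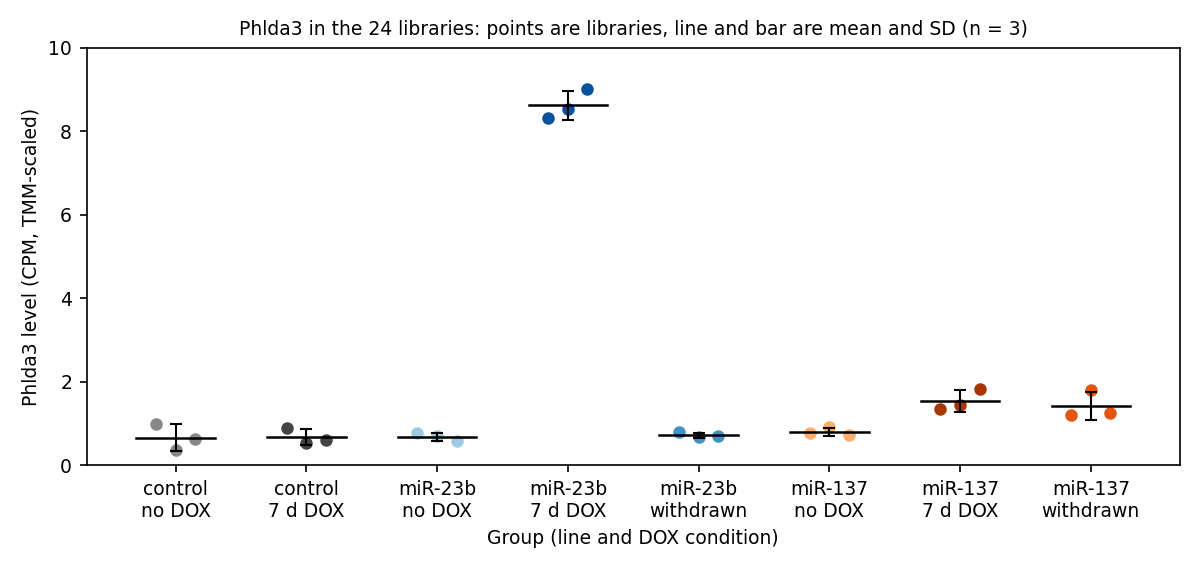
Phlda3 level in each of the 24 libraries (points; CPM, TMM-scaled, linear axis from 0) by line and DOX condition, with the mean (line) and SD (bar) of 3 libraries. The miR-23b line on 7 d DOX sits at 8.31 to 9.01 CPM, above all other libraries, and the miR-137 line on DOX and withdrawn sits at 1.21 to 1.83.

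In the control line Phlda3 stood at 0.998, 0.366 and 0.635 CPM without DOX and at 0.902, 0.523 and 0.610 with it. These groups overlapped, and the 95% interval of the log2 change reached from -0.66 to 0.62. In the miR-137 line the level was 0.772, 0.910 and 0.724 without DOX, 1.34, 1.44 and 1.83 with 7 d DOX, and 1.21, 1.80 and 1.25 after withdrawal. Every miR-137 library on DOX or withdrawn lay above every miR-137 library without DOX. The rise on DOX was 1.88-fold (log2 0.91, SE 0.250, edgeR adjusted p = 0.00311), and on the deposited TPM (the authors' length-scaled transcript levels; log2 of TPM + 0.1, limma) it missed the threshold at an adjusted p of 0.0926.

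The response of the miR-137 line was not separated from that of the control line (log2 difference 0.93, SE 0.406, 95% interval 0.11 to 1.75, edgeR adjusted p = 0.146). The response of the miR-23b line exceeded that of the miR-137 line by 2.74 on the log2 scale (SE 0.354, edgeR adjusted p = 7.58e-08). After withdrawal Phlda3 in each line was set against the same line without DOX. The miR-23b line was at a log2 difference of 0.10 (95% interval -0.56 to 0.76), and the miR-137 line was higher by 0.80 (SE 0.246, edgeR adjusted p = 0.00791). That call was lost without the second withdrawn library of the miR-137 line, the highest of the 3 (0.60, adjusted p = 0.0773), and on the deposited TPM (adjusted p = 0.192 with a pseudocount of 1). Whether the 2 lines differ in this was not tested.

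Depth limits the low Phlda3 values. The 3 libraries of a low group held 37 to 47 Phlda3 counts in all, with an exact 95% Poisson interval of 26.1 to 51.0 for 37. The miR-23b line on DOX held 524 (480 to 571), and these intervals cover counting error only. The SE of Phlda3 is correspondingly larger than those of the other genes. Of its family, Phlda1, another PH domain protein, fell in the miR-23b line from 16.5 to 13.1 CPM (log2 -0.33, edgeR adjusted p = 0.0006), while its difference from the control response missed the threshold (-0.26, adjusted p = 0.0634). Phlda2 was at or below 0.182 CPM in every library and was not tested.

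Men1 (ENSMUSG00000024947; chromosome 19, 6334979 to 6340891, plus strand) fell when the miR-23b cluster was induced. Its level in that line was 130, 135 and 136 CPM without DOX, 102, 99.5 and 101 with 7 d DOX, and 121, 122 and 127 after withdrawal. The libraries on DOX were the 3 lowest of all 24 in Men1, and those after withdrawal lay between, overlapping neither group. The fall was by 0.41 on the log2 scale (SE 0.0316, edgeR adjusted p = 5.61e-14), and it exceeded the response of the control line (log2 difference -0.38, SE 0.0439, adjusted p = 5.13e-09). After withdrawal Men1 had risen by 0.29 (SE 0.032, adjusted p = 7.92e-10) and was still lower than without DOX by a log2 difference of -0.12 (SE 0.0315, adjusted p = 0.00282).

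Men1 in the control line stood at 138, 142 and 141 CPM without DOX and 138, 137 and 139 with DOX, overlapping groups with a 95% interval of -0.09 to 0.04 for the log2 change. In the miR-137 line it stood at 132, 130 and 134 without DOX, 138, 143 and 140 on DOX, and 124, 131 and 127 after withdrawal. The rise of 0.09 (SE 0.0306, edgeR adjusted p = 0.0134) lost its call without the second no DOX library (adjusted p = 0.0667) or the second DOX library (adjusted p = 0.0712) of that line. On the deposited TPM it was 0.06 and missed the threshold (limma adjusted p = 0.183 with a pseudocount of 1). The rise was not separated from the control response (0.12, SE 0.0432, edgeR adjusted p = 0.0794). The fall on withdrawal was by 0.14 on the log2 scale (SE 0.0302, adjusted p = 0.000298).

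Daxx (ENSMUSG00000002307; chromosome 17, 33909414 to 33915590, plus strand), the H3.3 chaperone, passed the test in 0 of 14 comparisons with edgeR. Its 24 libraries ranged from 34.0 to 39.2 CPM, and group means from 35.1 to 37.4. The 3 DOX responses had 95% intervals that lay within log2 -0.11 and 0.15.

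Atrx (ENSMUSG00000031229; X chromosome, 105797615 to 105929403, minus strand), the chromatin remodeller that partners DAXX, rose in the miR-23b line. It stood there at 594, 584 and 585 CPM without DOX, 694, 692 and 674 with it, and 632, 601 and 608 after withdrawal. The 3 libraries on DOX were above the other 21. The rise was 0.22 on the log2 scale (SE 0.0331, edgeR adjusted p = 3.03e-07), 0.14 above the control response (SE 0.0468, adjusted p = 0.0193), and withdrawal was followed by a change of -0.16 (SE 0.0331, adjusted p = 8.86e-05). Over the 24 libraries the correlation of log2 CPM between the partners Daxx and Atrx was 0.19.

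In the control line Atrx stood at 547, 551 and 562 CPM without DOX and 572, 581 and 611 with it (log2 0.09, SE 0.0332, edgeR adjusted p = 0.0344). That call was lost without the first or second no DOX library (adjusted p = 0.125 and 0.117) and without DOX library 2 or 3 (0.0647 and 0.285), and in 4 of 9 alternatives (adjusted p of up to 0.188). The miR-137 groups overlapped, at 568 to 607 CPM without DOX and 586 to 600 with it.

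Tsc1 (ENSMUSG00000026812; chromosome 2, 28641228 to 28691167, plus strand), the hamartin subunit of the TSC complex, fell on DOX in all 3 lines. In the control line it went from 135, 142 and 136 CPM to 106, 115 and 120, and in the miR-137 line from 136, 142 and 145 to 116, 122 and 114. In the miR-23b line it went from 134, 145 and 134 to 90.5, 93.0 and 95.4. No group on DOX overlapped its own group without DOX, and the miR-23b libraries on DOX were the 3 lowest of all 24. The log2 changes were -0.28 (SE 0.0398), -0.26 (SE 0.0396) and -0.57 (SE 0.0407) in the control, miR-137 and miR-23b lines, with edgeR adjusted p of 3.53e-07, 7.5e-07 and 4.88e-15.

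The fall of Tsc1 in the miR-23b line exceeded that of the control line by a log2 difference of -0.29 (SE 0.057, edgeR adjusted p = 8.29e-05). On the deposited TPM plus 1 the difference was -0.14 and missed the threshold (limma adjusted p = 0.169). The median of all genes on that scale was itself at 0.07 in this difference. The response of the miR-137 line differed from the control response by 0.02 (95% interval -0.10 to 0.13). After withdrawal Tsc1 in the miR-23b line stood at 124, 123 and 117 CPM, which was 0.39 above the cells on DOX (SE 0.0414, adjusted p = 3.61e-10). In the miR-137 line it stood at 112, 118 and 114, overlapping the cells on DOX, and both withdrawn lines were below their own cultures without DOX (-0.18 and -0.30, adjusted p = 0.000334 and 6.61e-08).

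Tsc2 (ENSMUSG00000002496; chromosome 17, 24595816 to 24632630, minus strand), the tuberin subunit, moved the other way in the miR-23b line. It stood there at 162, 164 and 170 CPM without DOX, 181, 185 and 190 with it, and 158, 168 and 165 after withdrawal, so that the DOX libraries overlapped neither of the other groups. The rise was 0.16 on the log2 scale (SE 0.0357, edgeR adjusted p = 0.000155). It exceeded the control response by 0.15 (SE 0.0505, adjusted p = 0.0167), a call lost without the first DOX library of the control line (0.12, adjusted p = 0.052). Control libraries overlapped, at 166 to 177 CPM without DOX and 164 to 179 with it.

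The Tsc2 exons share 693 bases, 7.2% of their length, with Pkd1 on the other strand, and the sources used here do not give the strand setting of the counting. Pkd1 had a mean count of 4470 and changed in the same direction in the miR-23b line (0.26 on DOX, edgeR adjusted p = 0.000202; -0.22 on withdrawal, adjusted p = 0.00128). In the miR-137 line on DOX it was at 0.17 (adjusted p = 0.0134), where Tsc2 was at -0.07. Its part in the Tsc2 values was not tested.

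Akt1 (ENSMUSG00000001729; chromosome 12, 112653821 to 112674884, minus strand), the kinase that PHLDA3 restrains, stood at 148, 143 and 145 CPM in the miR-23b line without DOX, 133, 134 and 130 with it, and 132, 139 and 133 after withdrawal. The fall on DOX was by 0.13 on the log2 scale of scaled counts (SE 0.0327, edgeR adjusted p = 0.000613), but on the deposited TPM the change was 0 and the difference between the miR-23b and miR-137 responses turned from -0.13 to 0.07. The difference from the control response was not called (-0.09, adjusted p = 0.107). On TPM the median of all genes was itself at 0.07 in that response, and Akt1 relative to it was at -0.07. In the control and miR-137 lines Akt1 lay between 137 and 152 CPM with and without DOX, with overlapping groups.

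Mtor (ENSMUSG00000028991; chromosome 4, 148448611 to 148557683, plus strand), the kinase of both mTOR complexes, fell on DOX in the miR-137 line, from 174, 172 and 170 CPM to 154, 154 and 148. It stayed at 157, 155 and 153 after withdrawal, and no library of either group overlapped those without DOX. The fall was by 0.18 on the log2 scale (SE 0.033, edgeR adjusted p = 1.76e-05). In the control line Mtor went from 179, 170 and 171 to 157, 167 and 168 CPM (log2 -0.08, adjusted p = 0.0411), which 6 of 9 alternatives did not call (adjusted p of up to 0.206, and 0.0605 with DESeq2) and which was lost without the first library of either control group (adjusted p = 0.166 and 0.2). The miR-137 response was not separated from it (-0.10, SE 0.0465, adjusted p = 0.18).

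In the miR-23b line Mtor did not pass the test on DOX (180, 176 and 170 CPM without, 181, 175 and 185 with; 95% interval of the log2 change -0.03 to 0.11). It fell on withdrawal, to 152, 160 and 158 CPM (-0.20, SE 0.0331, edgeR adjusted p = 2.1e-06), which was also below the cultures without DOX (-0.16, adjusted p = 0.00012). The miR-23b response lay above the control response by 0.12 (SE 0.0462, adjusted p = 0.0317). This call was lost when replicate 1 of either control group or replicate 3 of either miR-23b group (no DOX or DOX) was left out (adjusted p of 0.0711 to 0.0822).

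**Figure D2:**
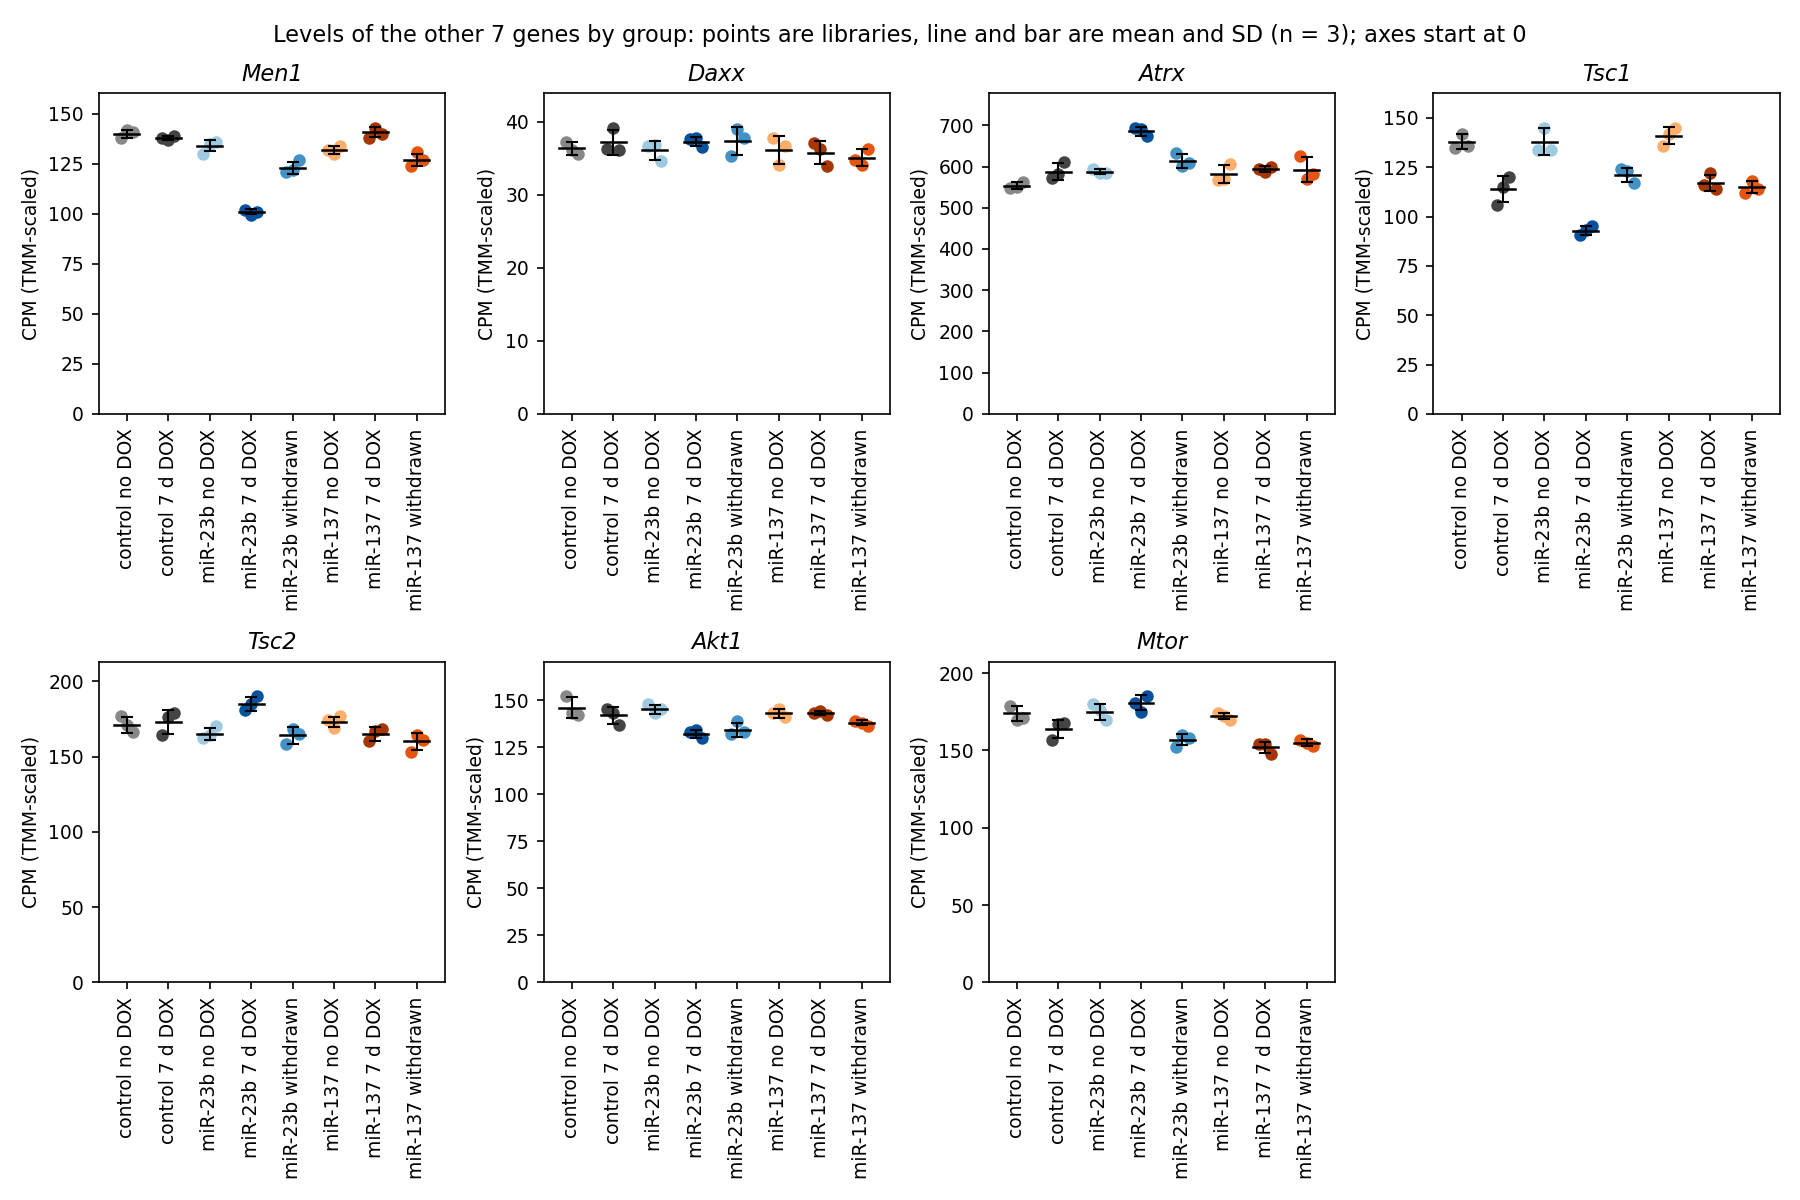
Levels of Men1, Daxx, Atrx, Tsc1, Tsc2, Akt1 and Mtor in each of the 24 libraries (points; CPM, TMM-scaled, linear axes from 0) by line and DOX condition, with the mean (line) and SD (bar) of 3 libraries. Men1 and Tsc1 are lowest in the miR-23b line on 7 d DOX (means 101 and 92.9 CPM), Atrx is highest there (686), and Daxx lies between 34.0 and 39.2 CPM in all libraries.

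Side by side, 3 of the 8 genes passed the test in the DOX response of the control line, where 37.8% of all genes tested did (18.5% higher and 19.3% lower). Atrx was higher and Tsc1 and Mtor lower. In the miR-23b line 6 of 8 passed, beside 57.4% of all genes (28.8% higher and 28.6% lower), with Phlda3, Atrx and Tsc2 higher and Men1, Tsc1 and Akt1 lower. With miR-137 induced, 4 of 8 passed, beside 42.9% (21% higher and 21.8% lower), with Phlda3 and Men1 higher and Tsc1 and Mtor lower. Calls were common among all genes, so the counts say nothing particular about the 8. What set Phlda3 apart was the size of its change, since the genes called in the miR-23b response had a median absolute log2 change of 0.34. The 3 responses rest on separate libraries, but their differences from the control response share the control libraries.

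**Figure D3:**
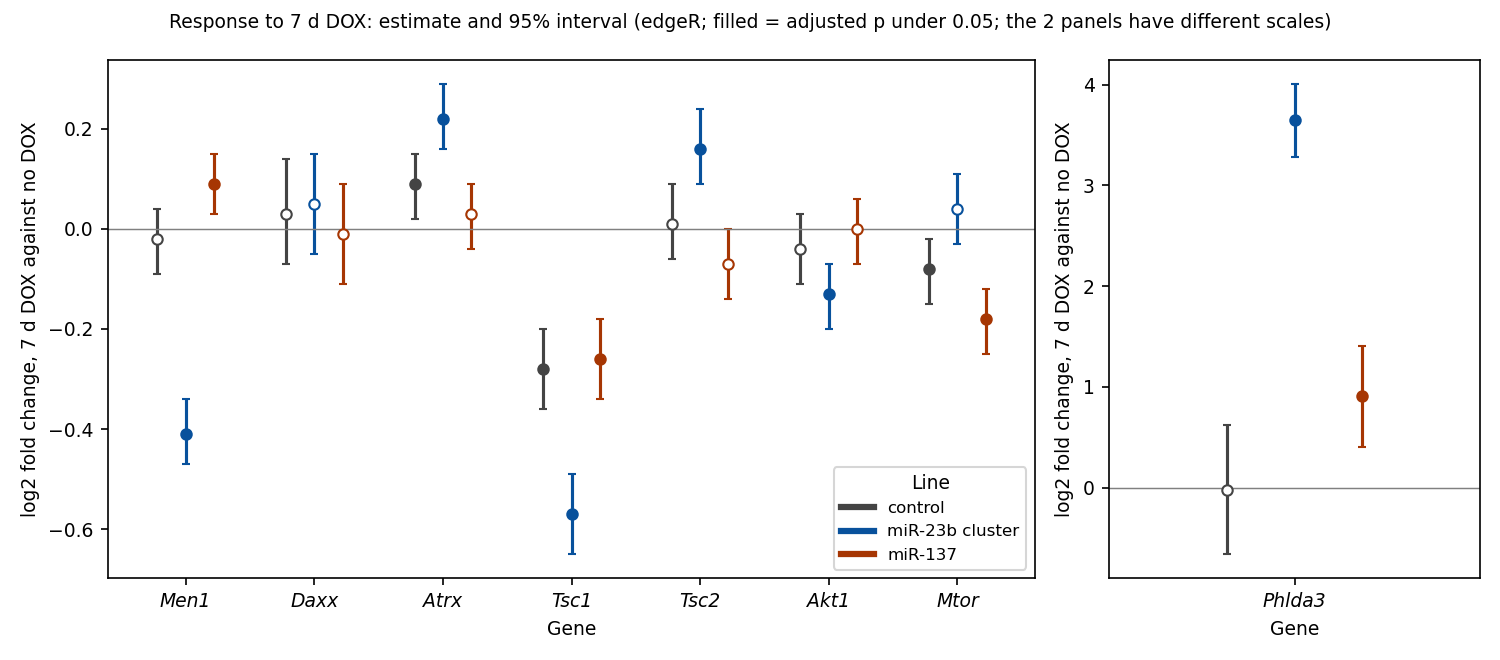
Log2 fold change of 7 d DOX against no DOX for each of the 8 genes in the control, miR-23b and miR-137 lines (points; bars are 95% intervals from edgeR, n = 3 against 3; filled points have an adjusted p under 0.05). The left panel has 7 genes and the right panel Phlda3 on a wider scale: Phlda3 is at 3.65 in the miR-23b line, and Men1 is at -0.41 there, -0.02 in the control line and 0.09 in the miR-137 line.

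Against the control response, 6 of 8 genes were called in the miR-23b line (37.6% of all genes): Phlda3, Atrx, Tsc2 and Mtor above it and Men1 and Tsc1 below. For miR-137, 0 of 8 were called by edgeR (10.7% of all genes) or DESeq2, while Phlda3, Men1 and Mtor, 3 of 8, had an unadjusted p under 0.05. Between the miR-23b and miR-137 responses 7 of 8 were called, beside 35.2%. With both lines on DOX, 7 of 8 differed between the miR-23b and control lines (52.2% of all genes) and 2 of 8, Phlda3 higher and Mtor lower, between the miR-137 and control lines (27.3%). The calls of Tsc2 and Akt1 (Akt1 at 0.01 on the deposited TPM) in the first were lost without replicate 1 of the control line on DOX (adjusted p = 0.133 and 0.071), and that of Tsc2 also without replicate 3 of the miR-23b line on DOX (0.0705). That of Mtor in the second was lost without control replicate 2 or 3 or miR-137 replicate 3 on DOX (0.0679, 0.0768 and 0.0746). Without DOX, 0 of 8 differed between either miRNA line and the control line by edgeR or DESeq2 (6.37% of all genes were called, 3.59% higher and 2.78% lower, and 2.7%, 1.89% higher and 0.814% lower). Men1 and Atrx, 2 of 8, had an unadjusted p under 0.05 in both of these comparisons.

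Withdrawal was followed by calls in 6 of 8 genes in the miR-23b line, against 7 d DOX (52.2% of all genes). Men1 and Tsc1 rose and Phlda3, Atrx, Tsc2 and Mtor fell. Taking the miR-137 line off DOX gave 1 of 8, Men1, as called (29.5%). Against their own cultures without DOX, the withdrawn miR-23b cells were lower in Men1, Tsc1, Akt1 and Mtor (4 of 8; 39.8%), where Akt1 stood at -0.11 on the scaled counts. The withdrawn miR-137 cells were higher in Phlda3 and lower in Tsc1, Tsc2 and Mtor (4 of 8; 43.4% of all genes, 21.6% higher and 21.7% lower). The Tsc2 call was lost without replicate 1 of the withdrawn miR-137 cells (adjusted p = 0.068). Tsc1 and Mtor were thus lower than without DOX in both withdrawn lines, and both were also called lower in the control line on DOX.

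Levels can be compared between genes only per length. On the mean deposited TPM the order was Atrx (399), Men1 (236), Akt1 (165), Tsc1 (56.5), Daxx (53.8), Mtor (27.2), Tsc2 (12.9) and Phlda3 (1.15). Tsc1 was above Daxx in 16 of 24 libraries, and all other neighbours kept their order in all 24. On CPM per kb of the union of annotated exons the order was Akt1 (34.3), Men1 (33.8), Atrx (27.6), Tsc2 (17.6), Mtor (16.4), Daxx (11.6), Tsc1 (10.3) and Phlda3 (1.21). There Akt1 was above Men1 in 12 of 24 libraries, Men1 above Atrx in 21, Tsc2 above Mtor in 22 and Daxx above Tsc1 in 18, and the other neighbours kept their order in all 24. In Phlda3 the TPM did not follow the counts by a fixed factor. In the miR-23b line without DOX, libraries at 0.776, 0.7 and 0.572 CPM stood at 0.53, 0.4 and 0.16 TPM. The scales thus differ in more than the length each gene is given, and why the order differed was not tested. Read as these counts over a length, the TPM would imply 0.0691 of the exon union for Atrx, up to a common factor. For Men1 it would be 0.143 and for Tsc2 1.37. The annotation behind these lengths is not given, so the order on TPM cannot be checked here. Phlda3 was the lowest on both, and Men1 stood next to the highest on both, above Akt1 in 24 of 24 libraries on TPM and level with it per kb of exon.

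Across the 24 libraries, correlations of log2 CPM between the 8 genes are descriptions, as all points share lines, conditions and normalisation. Phlda3 ran against Men1 (r = -0.82) and Tsc1 (-0.81) and with Atrx (0.77), and Men1 ran against Atrx (-0.87). The libraries of the miR-23b line on DOX were the highest in Phlda3 and Atrx and the lowest in Men1 and Tsc1. The correlations were not computed without them. The partners Tsc1 and Tsc2 were at -0.32, and Tsc2 and Mtor at 0.65. Among 10740 genes the pattern most like Phlda3 was that of Ermp1 (r = 0.944), followed by Epb41l1 (0.938), Ccp110 (0.932), Cers5 (0.930) and Lin7a (0.929). These 5 genes were likewise highest in the miR-23b line on DOX, such as Lin7a at a mean of 26.5 CPM against 14.8 without DOX and 15.5 after withdrawal, but none approached the fold of Phlda3. Most like Men1 were Nfatc2 (0.964), at 21.4, 8.93 and 16.4 CPM in the same 3 groups, and Raver1 (0.944). Most like Tsc1 were Cc2d1b (0.977) and Slc25a44 (0.976), most like Atrx Azin1 (0.929) and Xrn1 (0.921), and most like Mtor Nab1 (0.940) and Cerk (0.920). For Tsc2 Zdhhc18 is given (0.849), for Akt1 they were Igfbp2 (0.853) and Hist1h1c (0.847), and for Daxx only Slc25a20 (0.737) and Sssca1 (0.630).

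The genes around the 8 were read from lists of pathway members. The lists share genes, such as Cdkn1a in those of AKT substrates and p53. Some of the 8 are themselves counted in the lists that hold them. In the difference between the miR-23b and control responses, where 18.1% of all genes were higher and 19.4% lower, the list of AKT kinases, brakes and substrates had 11 higher and 3 lower of 28 (median log2 0.07, against -0.01 for all genes). Phlda3 itself was the highest, and Tsc2 was also among those higher. Cdkn1a, the cell cycle inhibitor p21, went from 109 to 118 CPM without DOX to 211 to 222 with it in the miR-23b line, and the groups did not overlap (difference from the control response 0.89, SE 0.0483, edgeR adjusted p = 2.49e-17). Trib2, a pseudokinase scaffold, went from a mean of 7.80 to 11.9 CPM (0.76, adjusted p = 1.23e-05), and Trib3, a related pseudokinase that binds AKT, from 35.8 to 23.0 (-0.56, adjusted p = 1.97e-05). Akt2, a kinase of the same family as Akt1, was lower in the miR-137 line (107 against 142 CPM without DOX; -0.34 from the control response, adjusted p = 1.24e-06).

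Upstream of AKT, 11 were higher and 5 lower of 24 tested (median 0.09). Inpp4b, a phosphatase that removes a PI3 kinase product, stood at 6.98, 6.90 and 5.72 CPM without DOX, 14.0, 15.1 and 16.9 with it and 5.33, 6.94 and 6.93 after withdrawal in the miR-23b line. The difference from the control response was 0.80 (SE 0.151, edgeR adjusted p = 5.43e-05). Irs2, the insulin receptor substrate, fell on DOX in all 3 lines, to 0.651, 0.613 and 0.703 of its level without DOX in the control, miR-23b and miR-137 lines. Inpp5d, at most 0.636 CPM and named after its values were seen, has the highest difference in that list (6.63, SE 2.63), a fitted value near 0 counts that is no measure of size.

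Of the mTOR complexes and TSC, 5 were higher and 2 lower of 16 tested (median 0.08). The 5 include Mtor and Tsc2, and the 2 include Tsc1. Mlst8, a subunit of both complexes, went from a mean of 53.6 to 70.8 CPM in the miR-23b line (difference from control 0.33, SE 0.0665, edgeR adjusted p = 0.000152), and Mapkap1, of complex 2, was also above the control response (0.38, adjusted p = 0.000486). Of 38 genes that carry amino acid and energy signals to mTORC1, 4 were higher and 15 lower (median -0.04). Rragd, a RAG GTPase, fell in all 3 lines on DOX: from 150, 176 and 169 to 55.9, 58.3 and 55.8 CPM in the control line and from 157, 177 and 165 to 29.9, 30.2 and 28.4 in the miR-23b line (difference -0.96, SE 0.0798, adjusted p = 2.55e-12). Flcn, the folliculin that acts on RAG GTPases, went in the miR-23b line from a mean of 145 to 59.1 CPM (difference -0.65, adjusted p = 7.79e-10). Ddit4l, a stress-induced brake on mTORC1, went from 10.1 to 3.85 in the control line and from 9.37 to 13.2 in the miR-23b line (difference 1.88, SE 0.167, adjusted p = 1.39e-11).

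Of 18 mTORC1 effectors, 4 were higher and 4 lower (median -0.04). The translation repressors Eif4ebp1 and Eif4ebp2 were lower (-0.68 and -0.57, edgeR adjusted p = 1.11e-07 and 3.58e-09), and the autophagy kinase Ulk1 was higher (0.60, adjusted p = 9.58e-10), at a mean of 64.4 CPM without DOX and 97.3 with it. The list of menin complexes had 1 higher and 3 lower of 13 (median -0.03). Its lower members were Men1, Cdkn1b, a cell cycle inhibitor and known menin target (262 to 202 CPM; -0.38, adjusted p = 1.7e-07), and Hcfc1. For H3.3 deposition and silencing 4 were higher and 5 lower of 19 (median -0.02), among them Atf7ip at 0.41 and Asf1a at -0.29.

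Of 23 other genes linked to neuroendocrine tumours, 2 were higher and 7 lower (median -0.01), with Vhl, the oxygen-sensing ubiquitin ligase, at -0.45 (SE 0.0823, edgeR adjusted p = 2.85e-05). Of 26 tested genes of the p53 pathway, to which Phlda3 belongs as a known target, 14 were higher and 8 lower (median 0.29). Besides Phlda3 and Cdkn1a they included Trp53inp1 (1.01, SE 0.0594, adjusted p = 1.7e-16) and Aen (0.78, SE 0.0976, adjusted p = 3.22e-08), both p53 targets, while Trp53 itself, named after its values were seen, was lower (-0.29, adjusted p = 2.22e-05).

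**Figure D4:**
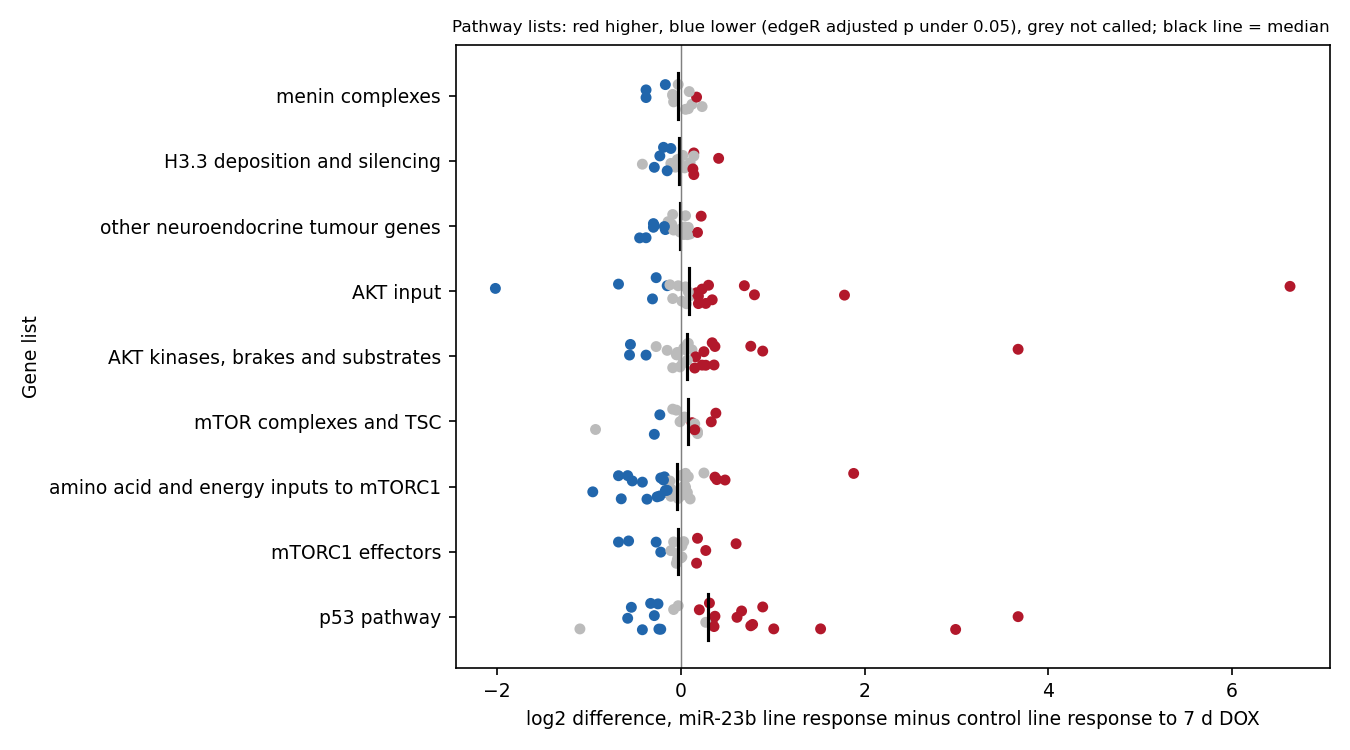
Log2 difference between the miR-23b and control responses to 7 d DOX for each tested gene of 9 lists (points; red higher and blue lower at an edgeR adjusted p under 0.05, grey not called; black line, median; vertical jitter only separates points). Phlda3 stands at 3.67 in the 2 lists that hold it, and the median of the p53 list is 0.29.

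In the difference between the miR-137 and control responses, where 5.90% of all genes were higher and 4.78% lower, the lists held fewer calls. They were 3 higher and 3 lower of 28 AKT kinases, brakes and substrates, 1 and 5 of 38 mTORC1 inputs, 4 and 0 of 18 effectors, and 5 and 3 of 26 p53 pathway genes. Ddit4l was above the control response here too (1.32, SE 0.171, edgeR adjusted p = 8.29e-07), as was Cdkn1a (0.31, adjusted p = 2.99e-05). Jund, an AP-1 factor bound by menin, was at 0.79 (adjusted p = 0.00387), with libraries of the miR-137 line without DOX spread from 148 to 218 CPM.

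Men1 and Tsc1, the genes with a seed match to miR-24-3p, were also those called below the control response in the miR-23b line. Of the 2548 tested genes with that match, 23.6% were called below and 20.9% above the control response (edgeR adjusted p under 0.05). Of the 2321 with a miR-27b-3p match 24.8% were called below and 20.4% above. Of the 669 with both, as in Tsc1, these shares were 26.3% and 19.4%. Of the 8775 with neither of these 2 matches they were 19.4% and 19.4%. Genes with and without a match were called on both sides, and the part of the matches in the fall of Men1 and Tsc1 was not tested. The sets were not matched for 3′ UTR length (719 bases in Men1 and 3994 in Tsc1), and matches to miR-23b-3p were not counted.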

How the data were processed

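The authors deposited raw read counts per gene for each of the 24 libraries, and a table of length-scaled values with a common total per library, treated here as TPM from those values. Per the submitters' processing notes, the tools included featureCounts, RSEM 1.2.19, cutadapt 1.3, HTSeq 0.6.1 and STAR 2.4.0g, with GRCm38 and mm10 as builds. The notes do not tie a tool to a table or give the strand setting. Reads mapped to more than 1 place (25.4% to 27.7%) were not counted in genes. Groups came from the labels.

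Counts were tested in R 4.3.3 with edgeR 4.0.16 (filterByExpr, TMM, 1 quasi-likelihood fit of 8 group means, common coefficient of biological variation 3.00%), with Benjamini-Hochberg adjustment over 14866 genes and a threshold of 0.05. SE is the log2 change over the square root of F. The deposited TPM were logged with a pseudocount of 1 or 0.1 and tested with limma 3.58.1; DESeq2 1.42.0 and other filters and scalings were alternatives. The procedure was checked on simulated data. The order of genes was planned on the deposited TPM alone; exon length was added after its length term was seen.

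The 8 genes were named whatever their values. Per list and DOX comparison up to 4 genes were eligible by absolute change, if past the threshold and at 5 CPM or more in a group. Like patterns were 5 genes for Phlda3 and 2 for the others, by Pearson correlation of log2 CPM (prior count 2). The genes and lists were chosen with earlier results of these data known. Some genes that these rules would name are not reported here.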

Additional observations from a re-analysis of the deposited data

Results flagged for a closer look

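The 8 genes were checked for DOX responses that differ between lines, by the test of the difference itself (edgeR, adjusted p under 0.05 over all genes). Against the control line, the miR-23b response differed in 6, beside 37.6% of all genes. The log2 differences were 3.67 in Phlda3, -0.38 in Men1, 0.14 in Atrx, -0.29 in Tsc1, 0.15 in Tsc2 and 0.12 in Mtor. Leaving out 1 library, the Mtor call was lost in 4 of 12 fits and that of Tsc2 in 1. On the deposited TPM plus 1 the Tsc1 difference was -0.14, with the median of all genes at 0.07, and missed the threshold (limma adjusted p = 0.169). Against the miR-137 line the miR-23b response differed in 7, beside 35.2% of all genes. The differences were 2.74 in Phlda3, -0.50 in Men1, 0.20 in Atrx, -0.31 in Tsc1, 0.23 in Tsc2 and 0.22 in Mtor. That of Akt1 was -0.13 (0.07 on the deposited TPM). The Tsc1 difference from the miR-137 line was -0.18 on the deposited TPM and missed the threshold (limma adjusted p = 0.0917 with a pseudocount of 0.1). The median of all genes there was at 0.11. That of Akt1 missed it without miR-23b no DOX replicate 1, miR-23b DOX replicate 3, miR-137 no DOX replicate 3 or miR-137 DOX replicate 2 (edgeR adjusted p of 0.0534 to 0.0609). Both sets share the miR-23b libraries.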

How the results depend on the processing

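Log2 changes of the 8 genes were recomputed under 9 alternatives each and without each library in turn. Of these, 970 and 789 kept their side of the threshold, 26 and 25 lost a call, and 4 and 2 gained one. Values not called on either side could change sign and still count among the 970 and 789. Phlda3 in the control response did so (-0.02, and -0.29 to 0.40 leaving out 1 library). The other 8 turned with a call in the main fit or in the alternative. All were Akt1 on the deposited TPM with either pseudocount. Those were 0 on DOX in the miR-23b line, 0.07 against the miR-137 response, -0.13 on withdrawal and 0.01 against the control line on DOX. Relative to the median of all genes on that scale, 0.07 for the response of the miR-23b line, the Akt1 change was -0.07.

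The number of the 8 called in the control response went from 3 to 1 without a filter, with only the groups compared, and on TPM plus 1 or 0.1 (1 to 3 leaving out 1 library, and 1 without control no DOX replicate 1). In the miR-137 response it went from 4 to 2 on TPM plus 0.1. Between the miR-137 and control lines on DOX it went from 2 to 1 without a filter and on both TPM scales (1 to 3 leaving out 1 library, and 1 without control replicate 2 or 3 or miR-137 replicate 3 on DOX). Without DOX, the share of genes called between the miR-23b and control lines went from 6.37% to 2.85% and 2.76% on TPM plus 1 and 0.1, and to between 3.09% and 4.5% leaving out 1 library, by over 1.5 times without control replicate 2 or any miR-23b replicate. Between the miR-137 and control lines it went from 2.7% to 1.02% and 0.982%, and to between 1.13% and 1.96%, by over 1.5 times without control replicate 2 or 3 or miR-137 replicate 1 or 2. The cause was not tested.

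The share of calls that were higher moved with scaling: 50.2% in the miR-23b response became 61.4% with library totals only and 67.0% on TPM plus 1, 48.3% against the control response became 58.4% and 69.9%, 47.7% against the miR-137 response became 59.3% and 73.9%, and 50.6% on its withdrawal became 41.5% and 27.8%. Without DOX, 56.3% between the miR-23b and control lines became 37.5% and 33.7%, and 69.9% between the miR-137 and control lines became 51.8% and 62.5%. On TPM plus 1, 49.5% between the miR-23b and control lines on DOX became 64.0%, 53.7% between the miR-137 and control lines on DOX became 41.6%, and 49.9% in the withdrawn miR-137 cells against no DOX became 39.5%. On TPM plus 0.1 the median of all genes was shifted by 0.11 against the miR-137 response and by -0.11 on withdrawal. Replicate numbers were not used to pair the libraries in the main fit. Same-number correlations of deviations were low, from -0.07 to 0.18, and no group pair of 28 had all above 0.1. All 3 libraries of the miR-23b line without DOX correlated best with the same-number miR-137 library without DOX. For the control line without DOX against the withdrawn miR-23b cells, 0 of 3 did so. With the replicate number added to the fit as a block, more genes were called in each comparison. The miR-23b response had 8629 calls, against 8530 without it. The miR-137 and control lines without DOX had 545, against 402. No call of the 8 genes changed. Depth limits Phlda3, at 37 to 47 counts per low group.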
